A study of Mus musculus with 40 samples.

Results

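Aminoacyl-tRNA synthetases join each amino acid to its transfer RNA, and 36 genes that encode them were followed across genotype and treatment in mouse embryonic stem cells (mESCs), out of 55536 genes in the count tables. The genes were chosen by name: 20 encode enzymes of the cytosol and 16 encode enzymes of the mitochondrion, whose symbols end in 2. *Kars*, *Gars* and *Qars*, which have no separate mitochondrial gene in the list, were counted as cytosolic. All 36 passed the filter on low counts in every fit.

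The mESCs were grown with leukaemia inhibitory factor on gelatin. Poly(A) RNA was sequenced from cells given DMSO and from cells given AZD6738 at 900 nM for 4 h, which inhibits the kinase ATR (ATRi). WT cells (2 biological replicates) were compared with *Ccnc* KO cells (clones D1, G2 and H5), which lack Cyclin C, and with *Cdk8* KO cells (clones B9, H4 and C8), which lack the kinase that Cyclin C activates. Each clone grew from 1 cell after CRISPR editing, so that a clone is also 1 cell line with its own history. The same WT libraries were sequenced with the *Ccnc* KO libraries in one multiplex and again with the *Cdk8* KO libraries in the other, so the knockouts share their controls and each was tested within its own multiplex.

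Protein synthesis needs a charged transfer RNA for every amino acid. For most amino acids, cells carry a synthetase for ribosomes of the cytosol and another, encoded in the nucleus and imported, for those of mitochondria. Counts per gene do not show in which compartment an enzyme works, which matters for genes without a separate mitochondrial gene. Several of the cytosolic enzymes sit together in the multisynthetase complex around the scaffold proteins AIMP1, AIMP2 and EEF1E1, whereas others are free. The transcription factor ATF4, which is made when amino acids are short or the endoplasmic reticulum is stressed, is known to raise many of the cytosolic synthetase genes through a composite C/EBP-ATF site, together with genes of amino acid transport and synthesis.

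Library totals lay between 30899823 and 67274049 counts. The *Ccnc* transcript was at 43.3 to 45.4 CPM (counts scaled to library size) in the WT libraries used and at 4.24 to 7.41 CPM in *Ccnc* KO libraries, whereas *Cdk8* was at 71.1 to 78.8 CPM in WT and still at 52.4 to 64.3 CPM in *Cdk8* KO libraries. The library of WT replicate 2 under ATRi was excluded from the comparisons. The study had done so too, because it stood apart in a principal component analysis. It had 38.8 CPM of *Ccnc* and 57.2 CPM of *Cdk8*. All 8 markers of pluripotent cells were detected, and their summed level was 4250 to 4490 CPM in WT, 3670 to 4070 CPM in *Ccnc* KO and, in the other multiplex, 4180 to 4410 CPM in WT and 3000 to 3900 CPM in *Cdk8* KO. The summed level of 8 primitive endoderm markers was 87.9 to 98.1 CPM in WT and 128 to 191 CPM in *Ccnc* KO, and 89.1 to 101 CPM in WT and 165 to 313 CPM in *Cdk8* KO. Of 7 fibroblast markers, *Lum* was at 0 in all *Ccnc* multiplex libraries and the sum did not pass 23.2 CPM in any library. These marker levels move with genotype, as do the synthetase values below, and their part in those values was not tested. In bulk RNA, fewer cells of a type and less RNA per cell cannot be told apart.

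The cytosolic synthetases were expressed at higher levels than the mitochondrial ones. As TPM (counts scaled by the union of a gene's annotated exons and by library), the median over libraries lay between 58.2 and 554 TPM for the 20 cytosolic genes and between 4.47 and 80.6 TPM for the 16 mitochondrial genes. The median cytosolic gene stood 7.31 ± 0.311 times above the median mitochondrial gene (SD, n = 18 libraries, of which the WT libraries are counted once per multiplex). With the length of the principal transcript in place of the exon union, a choice made after the data had been seen, this ratio was 7.76 ± 0.559.

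*Kars*, which charges lysine, was the highest at 554 TPM, followed by *Rars* (arginine) at 491 TPM and *Gars* (glycine) at 432 TPM. *Wars2* (tryptophan) was the lowest at 4.47 TPM, next to *Lars2* (leucine) at 4.78 TPM. *Cars*, the cysteinyl-tRNA synthetase, was the lowest cytosolic gene at 58.2 TPM and lay among the highest mitochondrial genes *Rars2* (80.6 TPM), *Yars2* (80.3 TPM) and *Tars2* (59.0 TPM). Of the 35 pairs of neighbours in the order of levels, 28 overlapped in their ranges over the libraries, so that the order within most of the list was not resolved. The choice of length moved *Cars2* and *Eprs* the most. *Eprs*, the enzyme for glutamate and proline, had 87.7 TPM on the exon union of 18102 bases and 221 TPM on a principal transcript of 4906 bases.

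**Figure D1:**
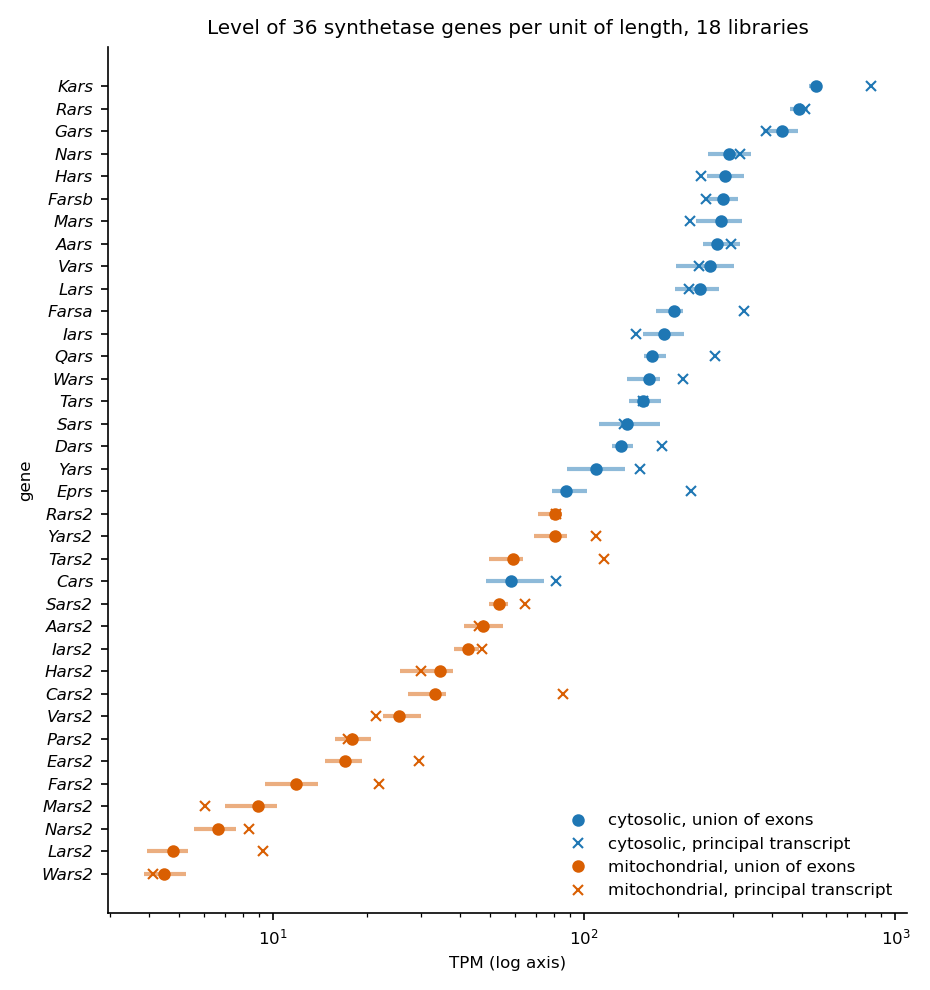
Level of each synthetase gene in TPM on a log axis, with the median (circle) and range (bar) over 18 libraries for the exon union and the median for the principal transcript (cross). The cytosolic genes (blue) fill the upper part from 554 TPM for *Kars*, and *Cars* at 58.2 TPM lies among the mitochondrial genes (orange).

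For pairs that charge the same amino acid, the cytosolic gene was not always far above its mitochondrial partner. On the principal transcript, *Cars* had 0.948 times the level of *Cars2*, *Tars* (threonine) 1.34 times that of *Tars2*, *Yars* (tyrosine) 1.39 times that of *Yars2* and *Sars* (serine) 2.08 times that of *Sars2*. At the other end *Wars* had 50.6 times the level of *Wars2*, *Nars* (asparagine) 37.9 times that of *Nars2* and *Mars* (methionine) 35.9 times that of *Mars2*. These ratios and their order depended on the length. On the exon union, *Cars* had 1.76 times the level of *Cars2*, *Tars* 2.63 times that of *Tars2* and *Yars* 1.36 times that of *Yars2*. There *Lars* had 49.4 times the level of *Lars2*, against 23.4 times on the principal transcript. *Nars* had 43.9, *Wars* 36.2 and *Mars* 30.8 times the level of the partner on the exon union.

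In the knockouts, part of the cytosolic synthetase genes was expressed at slightly lower levels than in WT, whereas no mitochondrial gene was called by edgeR. In *Ccnc* KO, 7 of the 20 cytosolic genes fell at an adjusted p-value under 0.05 (edgeR quasi-likelihood test, Benjamini-Hochberg adjustment over all genes tested): *Cars*, *Iars*, *Mars*, *Sars*, *Tars*, *Vars* and *Yars*. In *Cdk8* KO, 4 of the 20 fell: *Cars*, *Iars*, *Sars* and *Vars*. None of the 16 mitochondrial genes fell and none of the 36 genes rose in either knockout. The changes were small, from -12.8% to -17.3% in *Ccnc* KO and from -13.2% to -18.8% in *Cdk8* KO.

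These calls make up 19.4% of the 36 synthetases in *Ccnc* KO, where 5.28% of all 18577 genes tested were called lower and 7.01% higher. In *Cdk8* KO they make up 11.1%, where 2.03% of 18721 genes were called lower and 2.28% higher. The 4 genes called in *Cdk8* KO were all among the 7 called in *Ccnc* KO (57.1% of the latter), but both comparisons use the same WT samples. The median log2 fold change of the cytosolic genes was -0.13 in *Ccnc* KO and -0.14 in *Cdk8* KO, that of the mitochondrial genes was -0.04 and -0.03, and that of all genes tested was 0.0032 and 0.0086.

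The counts depended on single samples, WT replicate 1 above all. Without WT replicate 1, which leaves 1 WT library whose spread is taken from the other groups, 0 synthetases were called by edgeR in either knockout, and over all genes the calls fell to 289 in *Ccnc* KO and 1 in *Cdk8* KO. Without clone G2 only *Sars* was called in *Ccnc* KO and without clone D1 there were 11 calls, of which 10 were lower. The calls over all genes moved as well, with 7.54% without G2 and 14.3% without D1, against 12.3% with all clones. In *Cdk8* KO, only *Sars* was called without clone C8, *Sars* and *Vars* without WT replicate 2, and 7 genes without clone B9, where 1.33%, 1.41% and 8.25% of all genes were called, against 4.31% with all samples. With WT replicate 2 under ATRi included, *Cars*, *Iars* and *Sars* were called in *Ccnc* KO and *Cars*, *Sars* and *Vars* in *Cdk8* KO. Of all genes, 10.6% were called in *Ccnc* KO and 6.33% in *Cdk8* KO in these fits. In *Ccnc* KO 19.4% of the synthetases then had an unadjusted edgeR p under 0.05, below the 25.2% of all genes. In *Cdk8* KO it was 27.8%, against 23.8% of all genes.

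The libraries of a clone are not independent, and with the clone or WT replicate as a random block (limma voom) the same 7 genes were called in *Ccnc* KO, but only *Sars* and *Vars* in *Cdk8* KO. Of all genes, 10.1% were called with this block in *Ccnc* KO and 1.27% in *Cdk8* KO. In that blocked fit, *Cars* had an adjusted p of 0.078 and *Iars* of 0.10 in *Cdk8* KO. From the DMSO libraries alone 0 synthetases were called by edgeR in either knockout. Of all genes, only 3.72% in *Ccnc* KO and 0.0296% in *Cdk8* KO were called there. In each knockout, 8 of 36 synthetases (22.2%) had an unadjusted edgeR p under 0.05 from these libraries. The share of all genes was 19.2% in *Ccnc* KO and 11.9% in *Cdk8* KO. No synthetase changed by 2-fold or more.

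**Figure D2:**
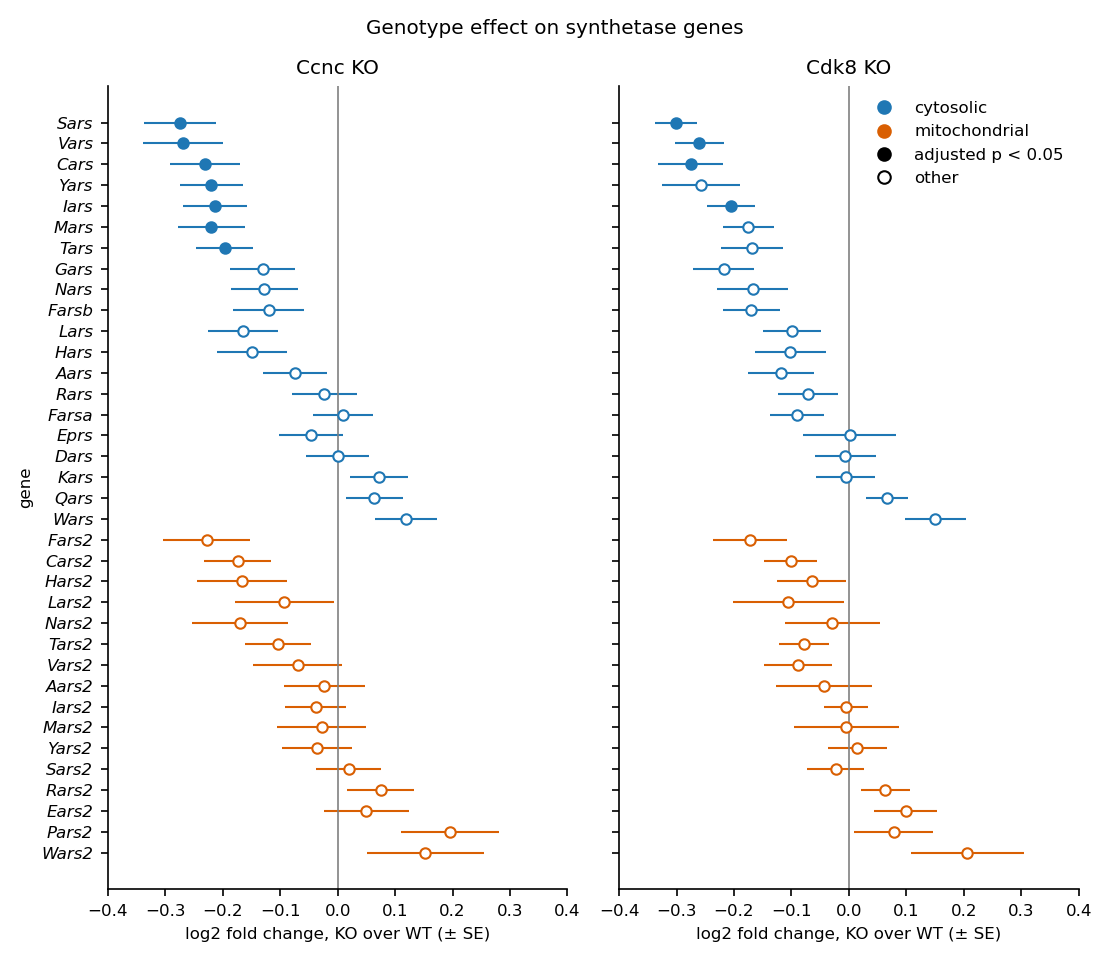
Log2 fold change of each synthetase gene, KO over WT, with its standard error, in *Ccnc* KO (left) and *Cdk8* KO (right). Filled circles mark the 7 and 4 cytosolic genes (blue) with an adjusted p under 0.05, all left of 0, and every mitochondrial gene (orange) is open.

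*Sars* was called lower in both knockouts in each alternative run, except without WT replicate 1, from the DMSO libraries alone and when a 2-fold change was also asked for. *Vars* was lost in these too, and in *Ccnc* KO without clone G2, without WT replicate 2 or with the fourth WT library, and in *Cdk8* KO without clone C8. *Sars*, the seryl-tRNA synthetase (chromosome 3, 108424865 to 108445209, GRCm38), had 267 and 271 CPM in WT under DMSO and 247 CPM in WT replicate 1 under ATRi. In the *Ccnc* KO clones D1, G2 and H5 it had 228.5, 219 and 214 CPM under DMSO and 223, 181 and 213 CPM under ATRi, so that every knockout library lay below the WT libraries used. The log2 fold change was -0.27 ± 0.06 (SE, adjusted p = 0.010, edgeR).

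In the other multiplex, the WT libraries had 263 and 264 CPM of *Sars* under DMSO and 247 CPM under ATRi. Clones B9, C8 and H4 of *Cdk8* KO had 211, 218 and 216 CPM under DMSO and 193.5, 201 and 203 CPM under ATRi. These libraries again lay below WT, with a log2 fold change of -0.30 ± 0.04 (SE, adjusted p = 0.0033, edgeR). WT replicate 2 under ATRi, left out of the fit, had 227 and 219 CPM and lay below *Ccnc* KO clone D1 under DMSO but above all *Cdk8* KO libraries.

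*Vars*, the valyl-tRNA synthetase (chromosome 17, 35000987 to 35016322), had 508 and 511 CPM in WT under DMSO and 512 CPM in WT replicate 1 under ATRi. The *Ccnc* KO clones D1, G2 and H5 had 358, 405 and 452 CPM under DMSO and 482, 446 and 430.1 CPM under ATRi. All 6 values were below WT, but clone D1 alone spanned the lowest and the highest of them. The log2 fold change was -0.27 ± 0.07 in *Ccnc* KO (SE, adjusted p = 0.019, edgeR).

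In *Cdk8* KO the spread of *Vars* was narrower, with 431, 395 and 412 CPM under DMSO and 435, 411.5 and 401 CPM under ATRi in clones B9, C8 and H4. The WT libraries of that multiplex had 503, 485 and 497 CPM. The log2 fold change was -0.26 ± 0.04 (SE, adjusted p = 0.012, edgeR), and the knockout libraries also lay below the 451 CPM of WT replicate 2 under ATRi.

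*Iars*, the isoleucyl-tRNA synthetase (chromosome 13, 49682100 to 49734267) and a member of the multisynthetase complex, had 331, 325 and 319 CPM in the 3 WT libraries used. *Ccnc* KO clones D1, G2 and H5 had 307, 262 and 292 CPM under DMSO and 269, 259 and 273 CPM under ATRi, without overlap (log2 fold change -0.21 ± 0.06, SE, adjusted p = 0.022, edgeR). *Cdk8* KO clones B9, C8 and H4 had 304, 291 and 277 CPM under DMSO and 279, 291 and 271 CPM under ATRi, against 343, 333 and 317 CPM in WT, again without overlap (-0.20 ± 0.04, adjusted p = 0.026). The 285 and 289 CPM of WT replicate 2 under ATRi fell within the knockout values in both multiplexes.

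*Cars* (chromosome 7, 143557230 to 143600090) moved with both genotype and treatment. WT had 141 and 145 CPM under DMSO and 124 CPM under ATRi. *Ccnc* KO clones D1, G2 and H5 had 123, 110.1 and 126 CPM under DMSO and 114, 101 and 112 CPM under ATRi. Clone H5 under DMSO was thus above WT replicate 1 under ATRi, although within each treatment every knockout library was below WT. The log2 fold change of the genotype effect, fitted beside treatment, was -0.23 ± 0.06 (SE, adjusted p = 0.022, edgeR).

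In the *Cdk8* multiplex, *Cars* had 139 and 148 CPM in WT under DMSO and 125 CPM in WT replicate 1 under ATRi. Clones B9, C8 and H4 had 131, 111 and 114 CPM under DMSO and 108, 102 and 101 CPM under ATRi, with a genotype effect of -0.28 ± 0.06 (SE, adjusted p = 0.027, edgeR). Clone B9 under DMSO lay above the WT library under ATRi.

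**Figure D3:**
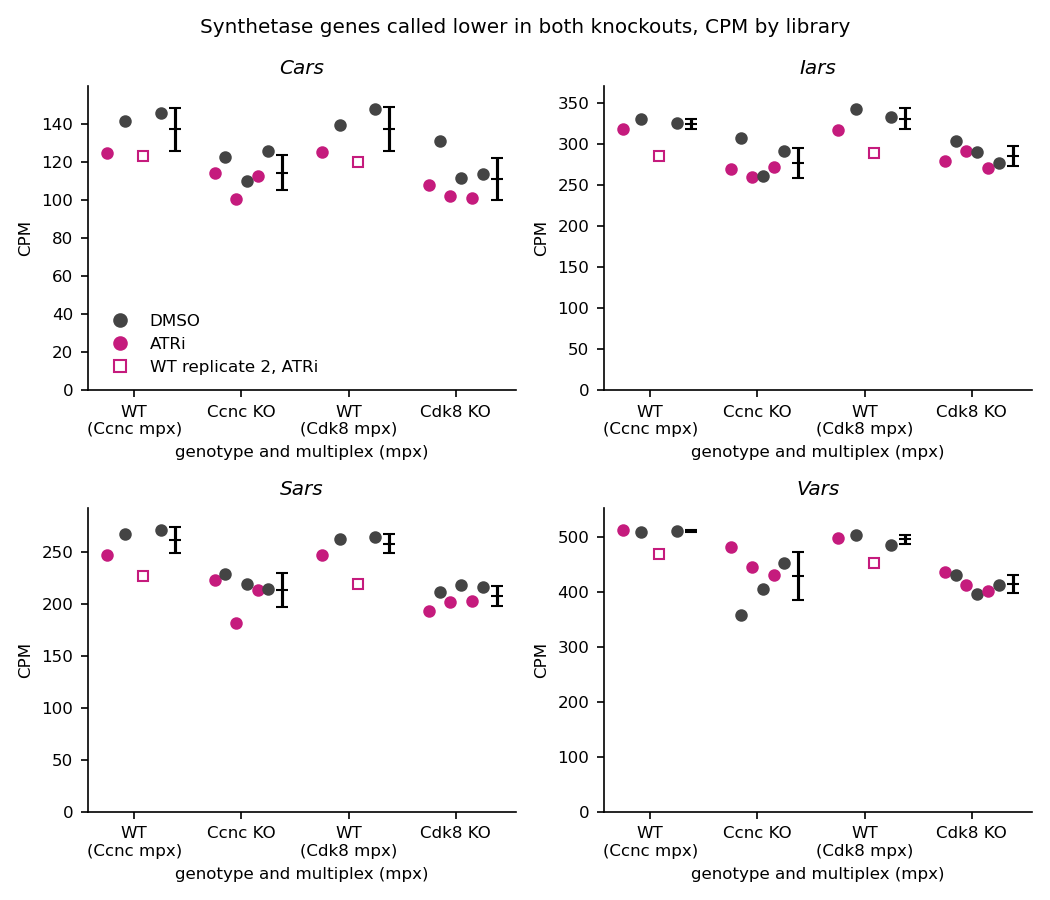
CPM of the 4 synthetase genes called lower in both knockouts, with 1 point for each library (grey, DMSO; magenta, ATRi) and, beside the points, the mean and SD of the libraries used. The open squares are WT replicate 2 under ATRi, which was left out of the mean and lay at 227 CPM for *Sars* and 468 CPM for *Vars* in the *Ccnc* multiplex, nearer to the knockout libraries than the other WT libraries.

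The other genes called in *Ccnc* KO were *Mars* (log2 fold change -0.22, adjusted p = 0.023), *Tars* (-0.20, adjusted p = 0.017) and *Yars* (-0.22, adjusted p = 0.017). In *Cdk8* KO the same genes had -0.18 (adjusted p = 0.054), -0.17 (adjusted p = 0.11) and -0.26 (adjusted p = 0.064), and *Gars*, for glycine, had -0.22 with an adjusted p of 0.0502. By DESeq2, *Mars*, *Yars*, *Gars* and *Farsb*, a subunit of the phenylalanyl enzyme, were called in *Cdk8* KO beside the 4 genes above. Over all genes DESeq2 called 9.06% there, against 4.31% by edgeR. Whether a gene differed between the knockouts was not tested.

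Within the cytosolic group, 15 of 20 genes had a negative estimate in both knockouts. *Wars* (tryptophan) and *Qars* (glutamine) had positive estimates in both, at 0.12 and 0.15 for *Wars* and 0.06 and 0.07 for *Qars*, and neither was called. *Kars* and *Dars*, for lysine and aspartate, were close to 0, with 0.07 and -0.0056 for *Kars* and -0.00028 and -0.0062 for *Dars*. *Lars* had -0.17 and -0.10 and *Hars* -0.15 and -0.10, and neither passed the test.

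The 8 synthetases of the multisynthetase complex and the 12 others of the cytosol had different medians. In *Ccnc* KO, 2 of 8 in the complex (*Iars* and *Mars*) and 5 of 12 outside it were called lower, with median log2 fold changes of -0.03 and -0.14. In *Cdk8* KO, 1 of 8 (*Iars*) and 3 of 12 were called, with medians of -0.04 and -0.17. By catalytic class, 5 of 10 class I and 2 of 10 class II enzymes of the cytosol were called in *Ccnc* KO, and 3 of 10 and 1 of 10 in *Cdk8* KO. These are descriptions, and none of the differences between subgroups was tested.

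Every knockout library lay below the WT libraries used for 8 synthetases in *Ccnc* KO (22.2%), compared with 6.84% of all genes tested, and for 6 in *Cdk8* KO (16.7%), compared with 5.92%. In *Ccnc* KO these were *Iars*, *Mars*, *Sars*, *Tars*, *Vars*, *Yars*, *Fars2* and *Tars2*. In *Cdk8* KO they were *Farsb*, *Gars*, *Iars*, *Mars*, *Sars* and *Vars*. With WT replicate 2 under ATRi counted as well, 1 gene (*Fars2*) remained in *Ccnc* KO and 3 (*Farsb*, *Sars* and *Vars*) in *Cdk8* KO.

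The mitochondrial genes had 0 calls by edgeR. In *Ccnc* KO 3 of them (18.8%) had an unadjusted edgeR p under 0.05, against 26.7% of all genes. In *Cdk8* KO 1 (6.25%) did, against 21.3% of all genes. Their estimates lay on both sides of 0. In *Ccnc* KO they ran from -0.23 for *Fars2*, for phenylalanine (adjusted p = 0.062), to 0.20 for *Pars2*, for proline (adjusted p = 0.16). In *Cdk8* KO they ran from -0.17 for *Fars2* (adjusted p = 0.16) to 0.21 for *Wars2* (adjusted p = 0.26). The estimates of 10 of the 16 genes were negative in both knockouts, and those of *Ears2*, *Pars2*, *Rars2* and *Wars2* were positive in both. By DESeq2, *Cars2* and *Fars2* were called lower in *Ccnc* KO and 0 mitochondrial genes in *Cdk8* KO. DESeq2 called 13.9% of all genes in *Ccnc* KO and 9.06% in *Cdk8* KO.

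The mitochondrial genes have fewer counts, from 228 to 8375 per library against 3509 to 52221 for the cytosolic genes. In *Ccnc* KO the standard errors ran from 0.053 (*Iars2*) to 0.10 (*Wars2*) for mitochondrial genes and from 0.049 (*Tars*) to 0.069 (*Vars*) for cytosolic genes. In *Cdk8* KO they ran from 0.039 (*Iars2*) to 0.098 (*Wars2*) and from 0.036 (*Sars*) to 0.081 (*Eprs*), so that the ranges overlapped in both. The part of depth in the smaller number of calls among the mitochondrial genes was not tested. The same WT library sequenced in both multiplexes differed by a median of 0.020 to 0.038 on the log2 scale over the 36 genes, and by 0.27 at most, for *Wars2*.

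The promoters of the synthetases were searched for the core of the C/EBP-ATF site, TGATGCAA, on either strand. RefSeq promoter windows (GRCm38.p6), from 250 bases before to 50 bases after the start of the gene, were matched for 27 of the 36 genes. Among 13 matched cytosolic genes, 4 held the core, and among 14 matched mitochondrial genes 0 did, compared with 0.895% of all 32851 windows. By edgeR, *Iars* was called lower in both knockouts, *Tars* and *Yars* in *Ccnc* KO, and the other gene with the core in neither. *Cars*, *Hars*, *Lars*, *Nars*, *Rars*, *Vars*, *Wars*, *Hars2* and *Pars2* were not matched. The windows of 30 bases around the core are given in the direction of the gene, with the core in capitals, for the 3 named genes.
Iars: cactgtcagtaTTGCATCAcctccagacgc
Tars: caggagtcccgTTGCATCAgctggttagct
Yars: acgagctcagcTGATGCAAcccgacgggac

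The core lay upstream of the start in *Tars* (bases -15 to -8, window at chr15:11399655-11399684 on the minus strand). It lay just after the start in *Iars* (bases 8 to 15, chr13:49682126-49682155, plus strand) and *Yars* (bases 4 to 11, chr4:129189895-129189924, plus strand). With any base in the sixth position, TGATGNAA, the site was also found in *Gars* and in 3.97% of all windows. *Sars* was matched and held neither form in its window, although it had the most negative estimate in both knockouts. A match of these letters is a description of the sequence, and whether a factor binds there in these cells was not measured.

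After 4 h of ATRi, no synthetase gene was called by edgeR in either multiplex when the libraries were compared beside genotype. In the *Ccnc* multiplex 0 of 36 passed an adjusted p of 0.05 in edgeR, which called 0.743% of all genes lower and 0.366% higher. An unadjusted edgeR p under 0.05 was found for 2 (5.56%), as for 16.2% of all genes. DESeq2 called 0 of the 36 and 3.17% of all genes. In the *Cdk8* multiplex 0 of 36 passed in edgeR, which called 0.0481% of all genes lower and 0.0374% higher. An unadjusted edgeR p under 0.05 was found for 4 (11.1%), as for 11.5% of all genes. DESeq2 called 1 of the 36, *Fars2*, and 1.7% of all genes. The estimates lay between -0.16 and 0.14 in the *Ccnc* multiplex and between -0.23 and 0.13 in the *Cdk8* multiplex.

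When each clone or WT replicate was compared with itself (edgeR with the replicate as a block), 6 synthetases were called lower and none higher in the *Cdk8* multiplex, and 0 in the *Ccnc* multiplex, where 4 had an unadjusted p under 0.05 (11.1%, against 18.6% of all genes). The 6 were *Aars*, *Cars*, *Nars*, *Sars* and *Yars* of the cytosol and *Fars2* of the mitochondrion. They make up 16.7% of the 36, whereas 6.39% of all genes were called lower and 4.87% higher in that fit. In the *Ccnc* multiplex the blocked fit called 1.46% of all genes lower and 0.964% higher.

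The blocked calls changed with the samples. Without one clone or WT replicate at a time, 3 to 6 synthetases were called in the *Cdk8* multiplex (3 without clone H4, 4 without B9, 4 without WT replicate 1), and 2 (*Cars* and *Yars*) with WT replicate 2 under ATRi included. Over all genes, 11.3% were called in the whole set, 5.31% without H4, 6.76% without B9, 6.57% without WT replicate 1 and 2.72% with WT replicate 2 under ATRi. In the *Ccnc* multiplex, *Yars* was called without clone D1, where 4.02% of all genes were. In the *Cdk8* KO clones alone, with no WT library, *Cars*, *Nars*, *Yars* and *Fars2* were called lower, where 4.1% of all genes were. In the *Ccnc* KO clones alone 0 synthetases were called by edgeR, where 0.28% of all genes were lower. An unadjusted edgeR p under 0.05 was found there for 2 (5.56%), against 15.4% of all genes.

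*Yars* had the smallest adjusted p in the blocked fit of the *Cdk8* multiplex. WT had 242 and 235 CPM under DMSO and 217 CPM in replicate 1 under ATRi, and clones B9, C8 and H4 had 221, 201 and 184 CPM under DMSO and 195, 178 and 162 CPM under ATRi. On the log2 scale, ATRi minus DMSO was -0.16 in WT replicate 1 and -0.18, -0.17 and -0.18 in the clones, although the clones differed among themselves by more than this. The blocked log2 fold change was -0.18 ± 0.03 (SE, adjusted p = 0.0017, edgeR), against -0.17 ± 0.07 (adjusted p = 0.36) without the block.

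In the *Ccnc* multiplex, WT had 248 and 234.5 CPM of *Yars* under DMSO and 220.0 CPM in replicate 1 under ATRi. Clones D1, G2 and H5 had 194.5, 206 and 215 CPM under DMSO and 201, 179.6 and 191.5 CPM under ATRi. Clone D1 moved the other way, with differences of -0.18 in WT replicate 1 and 0.05, -0.20 and -0.16 in the clones.

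*Cars* was lower under ATRi in WT replicate 1 and all 3 clones of both multiplexes. The differences were -0.18, -0.10, -0.13 and -0.16 in WT replicate 1 and clones D1, G2 and H5, and -0.16, -0.28, -0.12 and -0.17 in WT replicate 1 and clones B9, C8 and H4. The blocked log2 fold change in the *Cdk8* multiplex was -0.19 ± 0.03 (SE, adjusted p = 0.0031, edgeR). *Nars*, the asparaginyl-tRNA synthetase, was also lower in all of these pairs, with a blocked change of -0.14 ± 0.03 (adjusted p = 0.0053) in the *Cdk8* multiplex, and so was *Sars*, with -0.11 ± 0.03 (adjusted p = 0.024).

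*Fars2* (chromosome 13, 36117412 to 36726280) was the only mitochondrial gene called under ATRi. In the *Cdk8* multiplex it had 23.65 and 23.5 CPM in WT under DMSO and 21.4 CPM in replicate 1 under ATRi, and 22.2, 21.4 and 21.6 CPM under DMSO and 19.1, 17.4 and 17.5 CPM under ATRi in clones B9, C8 and H4. The 3 clones under ATRi were thus the lowest libraries, and the blocked change was -0.24 ± 0.05 (SE, adjusted p = 0.0088, edgeR). The library of WT replicate 1 under ATRi differed by 0.229 for *Fars2* between its sequencing runs in the 2 multiplexes, about as much as this change. In the *Ccnc* multiplex, WT had 24.7 and 24.3 CPM under DMSO and 25.1 CPM in replicate 1 under ATRi, and clones D1, G2 and H5 had 21.1, 21.8 and 22.6 CPM under DMSO and 21.4, 18.0 and 20.4 CPM under ATRi. There the differences had both signs, at 0.03, 0.02, -0.27 and -0.15.

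*Ears2*, for glutamate, and *Nars2* had the largest positive estimates of the *Ccnc* multiplex and were not called. *Ears2* had 26.9 and 28.4 CPM in WT under DMSO, 27.4 CPM in WT replicate 1 under ATRi, 24.4, 27.7 and 28.4 CPM in clones D1, G2 and H5 under DMSO and 32.0, 30.3 and 31.2 CPM in the same clones under ATRi. The clones under ATRi lay above the other libraries, with an estimate of 0.14 ± 0.07 (SE, adjusted p = 0.34, edgeR). In the *Cdk8* multiplex *Ears2* had 25.4, 25.8 and 25.4 CPM in the WT libraries used, 26.3, 26.4 and 26.8 CPM in clones B9, C8 and H4 under DMSO and 28.4, 28.8 and 29.25 CPM under ATRi (0.08, adjusted p = 0.64).

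*Nars2* had 15.3 and 13.45 CPM in WT under DMSO and 17.1 CPM in replicate 1 under ATRi, and 13.4, 12.4 and 14.4 CPM under DMSO and 13.9, 14.4 and 13.9 CPM under ATRi in clones D1, G2 and H5. The treatments overlapped, with an estimate of 0.12 (adjusted p = 0.48, edgeR). In the *Cdk8* multiplex it had 15.1, 13.6 and 16.1 CPM in WT and 15.6, 15.5 and 14.0 CPM under DMSO and 13.7, 14.9 and 14.2 CPM under ATRi in the clones, with an estimate of -0.0068.

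**Figure D4:**
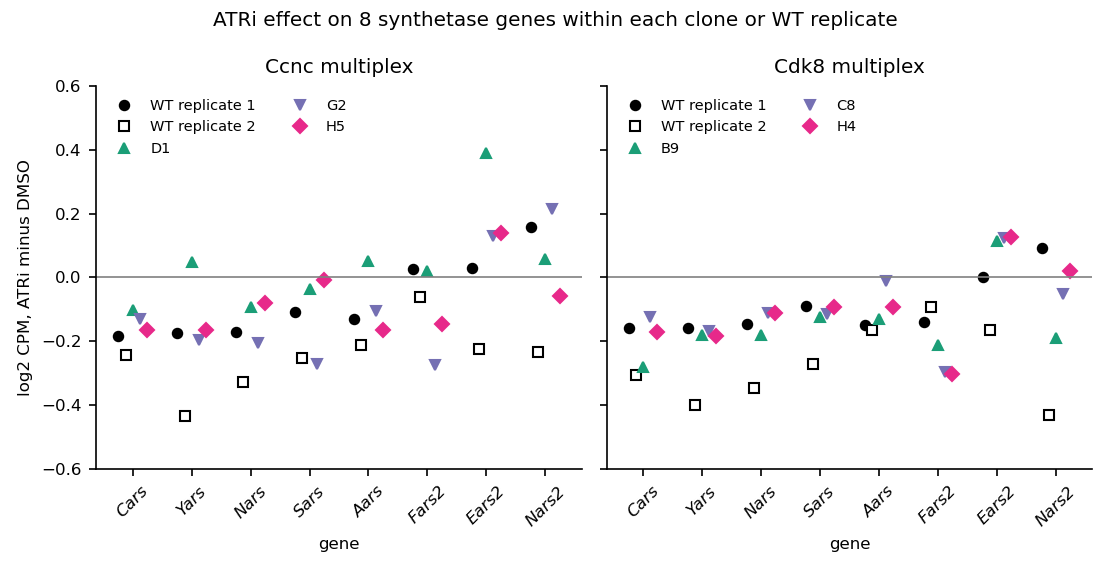
Difference in log2 CPM between ATRi and DMSO within each clone or WT replicate, for 8 synthetase genes in the *Ccnc* multiplex (left) and the *Cdk8* multiplex (right). *Cars* and *Nars* lie below 0 in all pairs, whereas *Ears2* lies above 0 in all 6 clones and below 0 in WT replicate 2 (open squares).

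Across the whole group, the cytosolic genes were lower under ATRi in WT replicate 1 and all 3 clones for 5 of 20 genes in the *Ccnc* multiplex and for 9 of 20 in the other, compared with 14.5% and 16.3% of all genes tested. Among the 16 mitochondrial genes this was so for 0 and 1. The median blocked log2 fold change of the cytosolic genes was -0.04 and -0.03, that of the mitochondrial genes was 0.06 and -0.01, and that of all genes was -0.0091 and -0.0054. *Aars* was called in the *Cdk8* multiplex with -0.10 ± 0.03 (SE, adjusted p = 0.033, edgeR with block). It shares 1326 exon bases on its strand with *Exosc6*. Reads from there lie in both genes, and the study names no option for counting such reads. The value of *Aars* is therefore uncertain.

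The summed level of the cytosolic genes in relation to that of the mitochondrial genes was lower in most knockout libraries. The ratio was 8.97, 8.79 and 8.75 in the WT libraries used of the *Ccnc* multiplex and 9.33, 8.45 and 8.61 under DMSO and 8.47, 7.99 and 8.33 under ATRi in clones D1, G2 and H5. Clone D1 under DMSO was thus the highest library. In the *Cdk8* multiplex the ratio was 9.13, 8.94 and 8.86 in WT and 8.67, 8.64 and 8.23 under DMSO and 8.29, 8.60 and 8.18 under ATRi in clones B9, C8 and H4, all below WT.

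The effect of ATRi did not differ detectably between genotypes for any synthetase. With the interaction of genotype and treatment, 0 of 36 genes were called by edgeR and 0 by DESeq2 in each multiplex, and 0 of 36 had an unadjusted p under 0.05 in edgeR, where 2.13% of all genes in the *Ccnc* and 1.36% in the *Cdk8* multiplex did. Over all genes 0% were called in either multiplex. The largest interaction estimate was 0.23 ± 0.14 for *Aars2* in the *Ccnc* multiplex and -0.25 ± 0.16 for *Nars2* in the *Cdk8* multiplex (SE). With 1 WT library under ATRi, standard errors of this size do not allow changes such as those above to be told from 0.

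Most synthetase genes were lower in WT replicate 2 under ATRi than in WT replicate 1 under ATRi. This was so for 29 of the 36 genes in the *Ccnc* multiplex and 30 in the other multiplex, by a median of -0.17 and -0.16 on the log2 scale. Under DMSO, replicate 2 was lower for 26 and 27 genes, by a median of -0.04 and -0.05. The difference between the replicates was not computed over all genes. WT replicate 2 under ATRi differed from its own DMSO library by a median of -0.171 and -0.166 over the 36 genes, and of -0.047 and -0.038 over all genes tested. *Lars*, the leucyl-tRNA synthetase, had 259 CPM in this library and 406 CPM in replicate 1 under ATRi, with 439.5 and 398 CPM in WT under DMSO (*Ccnc* multiplex).

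*Eprs* had 371 CPM in the same library against 514 CPM in replicate 1, *Nars* 316 against 413 CPM and *Mars* 252 against 322.5 CPM. *Sars2* and *Wars* were higher in it, at 62.9 against 52.7 CPM and 186 against 158 CPM. When the same library was sequenced again in the *Cdk8* multiplex, *Lars* was again at 259 CPM and *Mars* at 249.7 CPM, and over the 36 genes the runs differed by a median of 0.038.

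**Figure D5:**
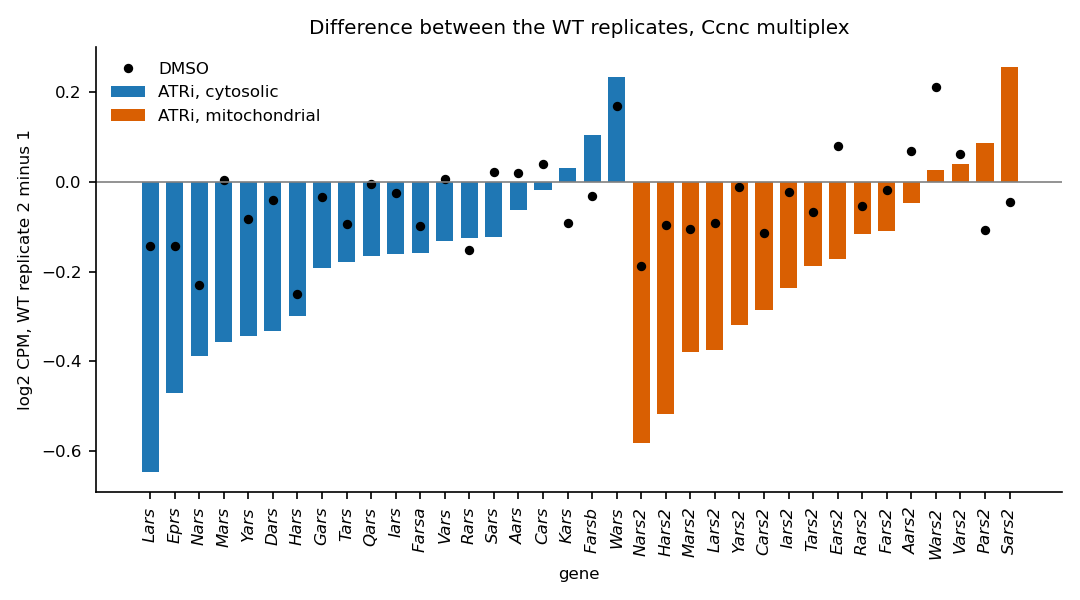
Difference in log2 CPM between WT replicate 2 and WT replicate 1 for each synthetase gene in the *Ccnc* multiplex, under ATRi (bars, blue for cytosolic and orange for mitochondrial) and under DMSO (points). Under ATRi 29 of 36 genes are below 0, with *Lars* the lowest.

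Partners of the synthetases in charging were not called by edgeR in either knockout. Of 16 such genes, 0 were called by edgeR for genotype, with 2 (12.5%) at an unadjusted p under 0.05 in each knockout. Of all genes, 26.7% in *Ccnc* KO and 21.3% in *Cdk8* KO were at that level. By DESeq2 1 (*Trnt1*, which adds the CCA end to transfer RNAs) was called higher in *Cdk8* KO and 0 in *Ccnc* KO. Of all genes, DESeq2 called 9.06% in *Cdk8* KO and 13.9% in *Ccnc* KO. The scaffold genes of the multisynthetase complex had genotype estimates of -0.02 and -0.06 (*Aimp1*), 0.00038 and -0.08 (*Aimp2*) and 0.02 and -0.0015 (*Eef1e1*) in *Ccnc* and *Cdk8* KO. Under ATRi, 0 of the 16 were called by edgeR or DESeq2. In each multiplex 1 (6.25%) had an unadjusted edgeR p under 0.05, against 16.2% (*Ccnc*) and 11.5% (*Cdk8*) of all genes. With the block 1 of the 16 was called higher in the *Cdk8* multiplex, as were 4.87% of all genes. It was *Eef1a1* (0.11, adjusted p = 0.017, edgeR with block), the factor that carries charged transfer RNAs to the ribosome.

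Of 20 other genes of mitochondrial translation and transfer RNA processing, 1 was called lower in each knockout, 5.0% of the list, against the 5.28% and 2.03% of all genes given above. This was *Elac2*, which cleaves the 3′ trailers of transfer RNA precursors (-0.24, adjusted p = 0.0071 in *Ccnc* KO and -0.24, adjusted p = 0.014 in *Cdk8* KO, edgeR). Under ATRi, 0 were called by edgeR or DESeq2 (2 and 0 at an unadjusted p under 0.05). With the block 1 of the 20 was called higher in the *Cdk8* multiplex, as were 4.87% of all genes. It was *Trmt10c*, a subunit of mitochondrial RNase P (0.12, adjusted p = 0.039, edgeR with block).

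Of 31 genes of the ATF4 pathway, 2 were called higher and 3 lower in *Ccnc* KO, and 1 higher and 5 lower in *Cdk8* KO. In *Ccnc* KO this is 6.45% higher and 9.68% lower, where 7.01% and 5.28% of all genes were, and in *Cdk8* KO 3.23% higher and 16.1% lower, where 2.28% and 2.03% were. *Trib3*, which restrains ATF4 activity (-0.32 and -0.50), and *Psat1* of serine synthesis (-0.21 and -0.22) were lower in both, and the stress factor *Atf3* was higher in both (0.95 and 1.55). *Atf4* itself had -0.27 in *Ccnc* KO (adjusted p = 0.088) and -0.41 in *Cdk8* KO (adjusted p = 0.016, edgeR).

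Under ATRi, 8 genes of the pathway were called lower in the *Ccnc* multiplex and 3 in the other multiplex, and 0 higher. Of all genes 0.743% and 0.0481% were called lower in these fits. With the block 9 and 15 genes of the pathway were, as were 1.46% and 6.39% of all genes, which is 1196 genes in the *Cdk8* multiplex against 9 without the block. *Chac1*, which degrades glutathione, fell by 1.99 and 1.88 on the log2 scale and *Trib3* fell by 0.99 and 1.04, and *Atf4* had -0.47 (adjusted p = 0.030) and -0.42 (adjusted p = 0.072, with the block 2.91e-05). *Asns*, asparagine synthetase, had -0.04 and 0.02 and was not called, so that within the list the changes were uneven. Without the block, the synthetase with the largest change under ATRi was *Fars2* at -0.23 in the *Cdk8* multiplex, where *Atf4* had -0.42.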

How the data were processed

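RNA-seq libraries of WT (2 replicates), *Ccnc* KO and *Cdk8* KO (3 clones each) mESCs were analysed from 40 lane samples. The authors trimmed reads (Trimmomatic 0.38), aligned them to GRCm38.p6 (HISAT2 2.1.0) and counted them per gene by strand (featureCounts 2.0.1, duplicates ignored), and deposited raw counts per lane. Their rlog values were not used. Lanes were summed per library. Totals ran from 30899823 to 67274049 counts.

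Counts were tested within each multiplex with edgeR 4.0.16 (R 4.3.3; quasi-likelihood, TMM, filterByExpr), with genotype and treatment as covariates of each other, and called at an adjusted p-value under 0.05. The fits excluded WT replicate 2 under ATRi, following the study. Alternatives used DESeq2 1.42.0, limma 3.58.1 (voom), RLE factors, no filter, other samples and the replicate block. The scripts were tested on simulated data, in which the changes put in were larger than those called for the synthetases. CPM used TMM, with a prior count of 2 for log2 CPM. TPM used GENCODE M21 exon unions. Gene positions come from that annotation.

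The DMSO and ATRi libraries of a clone are paired, being the same cell line. Their deviations from the group means correlated across genes with r = 0.176, 0.0205 and 0.184 in D1, G2 and H5. In B9, C8 and H4 r was 0.554, 0.177 and 0.627. Between different clones r ran from -0.242 to 0.0888 in the *Ccnc* multiplex, a range that holds the value of G2. In the *Cdk8* multiplex it ran from -0.551 to 0.0791 between different clones.

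The genes, lists and tests were chosen with earlier results of these data known. All synthetases could be named. Values per library are given for those called in both multiplexes and the 3 with the largest change in each contrast. Of the partner, mitochondrial and ATF4 lists, genes called in both multiplexes, those with the largest change, *Atf4* and the scaffold genes could be named. *Trnt1*, *Eef1a1*, *Trmt10c* and *Asns*, and synthetases with values beyond that rule, were named after their values were seen. *Ddit3* was left out because 2 identifiers carry its symbol. One promoter window is not reported here.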

Additional observations from a re-analysis of the deposited data

How the results depend on the processing

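For the genotype effect, the 7 synthetases called in the *Ccnc* multiplex became 0 with the study's 2-fold rule, 0 from DMSO libraries alone and 3 with WT replicate 2 under ATRi included, and 0 to 11 with one clone or WT replicate left out. The 4 called in the *Cdk8* multiplex became 0 with the 2-fold rule, 0 from DMSO libraries alone, 8 with DESeq2 and 2 with the replicate block, and 0 to 7 with one left out. Over all genes, the 2-fold rule called 1.94% in the *Ccnc* and 1.05% in the *Cdk8* multiplex. The DMSO libraries alone called 3.72% and 0.0296% of all genes. For the ATRi effect, the 0 called in the *Cdk8* multiplex became 1 with DESeq2 and 6 with the replicate block. The count became 4 in the knockout clones alone with the block, and 2 with the block and WT replicate 2 under ATRi included. With one clone or WT replicate left out the count stayed at 0 without the block and ranged from 3 to 6 with it. Without clone C8 it was 5 with the block, where 9.81% of all genes were called. In the *Ccnc* multiplex the 0 remained 0 with the replicate block, and ranged from 0 to 1 with the block and one left out. The interaction called 0 in every alternative run, and its fit without WT replicate 1 was not run, since no WT library under ATRi remains. The ratio of cytosolic to mitochondrial levels moved from 7.31 to 7.76 with principal transcript lengths. The 20 fold changes recomputed singly, those of synthetases called for either effect and the largest under ATRi, kept their sign in all 274 alternative values. Estimates near 0 did not: in *Ccnc* KO 16 of 20 cytosolic genes were negative, but 14 from DMSO libraries alone. The fits with the block that leave out a sample or include WT replicate 2 under ATRi, and the principal transcript lengths, were chosen after seeing the data. Apart from settings whose construction leaves fewer samples, the cause of these shifts was not tested. The lowest count of a mitochondrial gene was 228 per library, against 3509 for a cytosolic gene, and the part of depth was not tested.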
